A study of Mus musculus with 12 samples.

Results

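The glutathione S-transferases, UDP-glucuronosyltransferases and sulfotransferases are the conjugation enzymes of drug metabolism. The 52 genes described here are all rows of the value table with exactly 1 platform symbol of the Gst (alpha, mu, pi, theta, kappa, omega and zeta), Mgst, Ugt1 to Ugt3 or Sult families, out of 22180 genes measured. Each gene had a single row, so taking the brightest row per gene changed nothing. They comprise 2 Gsta, 6 Gstm, 3 Gstp, 4 Gstt, 1 Gstk, 2 Gsto, 3 Mgst, 8 Ugt2, 2 Ugt3 and 21 Sult genes. Another 9 rows carry several symbols and were left out, among them both Ugt1a rows, the Gsta1 and Gsta2 rows and the Gstz1 row, so the Ugt1 and zeta families are not analysed here.

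Conjugation enzymes attach a water-soluble group to a drug, a dietary compound, a steroid or a product of lipid peroxidation, so that it can be exported. Glutathione S-transferases use glutathione, UDP-glucuronosyltransferases use UDP-glucuronic acid and sulfotransferases use PAPS, the activated form of sulfate. In the gut these enzymes are known mainly from absorptive epithelial cells, where nuclear receptors such as the pregnane X receptor and the hepatocyte nuclear factors drive many of them.

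RNA from mouse colon was hybridised to 12 Affymetrix whole-transcript arrays, 3 for each of 4 genotypes. Wild type (WT) is labelled IL10+/+ STING+/+, IL10KO is IL10-/- STING+/+, SKO is IL10+/+ STING-/- and DKO is IL10-/- STING-/-. IL-10 is a cytokine that restrains inflammation, mice without it develop colitis, and STING is the adaptor that relays the sensing of cytosolic DNA. Each sample title ends in a number of its own and the letter M. The labels name neither strain nor age, and do not say whether each sample was a different mouse. The p-values therefore measure the spread among these samples, which may be technical.

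Several arrays stood apart. Sting1 read 4.13 to 4.40 in the 6 arrays of SKO and DKO and 6.87 to 8.09 in IL10KO, but 7.51, 6.40 and 4.56 in WT. The last value, in the library labelled WT replicate 3, lies next to the STING-deficient range, and of the 66 pairs of arrays the one most alike over all genes was that library and SKO replicate 1 (Pearson r = 0.9967). Every WT value below includes it unless stated. Pancreatic acinar genes (13 measured) averaged 8.63 and 11.46 in the first 2 WT replicates and 4.62 to 5.44 elsewhere. Squamous and sebaceous genes (17 measured) averaged 7.10 and 7.26 in IL10KO replicates 2 and 3, 5.09 in IL10KO replicate 1 and in DKO replicate 3, and 4.14 to 4.38 elsewhere. Adipocyte genes (9 measured) averaged 6.96 in DKO replicate 1 and 6.81 in WT replicate 2 and 5.56 to 6.43 elsewhere. The general epithelial list (12 genes such as Epcam, Krt8 and Vil1) read 10.79 to 11.06 in all arrays, which fits the label of colon, and hepatocyte genes (12) read 4.47 to 4.84.

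Signals are log2 values, differences are log2 differences with their standard error (SE), and a gene is called where limma's moderated test gives a Benjamini-Hochberg adjusted p under 0.05 over all 22180 genes. On mean signal, 25 of the 52 genes lay above the median gene (5.55) and 27 below it, and 18 of the latter were under the lower quartile of every array. The arrays carry no detection call, so none of these can be called absent. All Ugt3 genes, 6 of the 8 Ugt2 genes and all 8 Sult2a genes are among the dim rows.

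In IL10KO against WT, 11 conjugation enzyme genes fell and 1 rose. The 12 called genes are 23.1% of the 52, where 8.14% of all genes were called (3.12% higher, 5.01% lower). All 12 lie among the 25 brighter members, of which they make up 48%, where 11.9% of genes above the median signal were called. The median difference was -0.52 over the 25 brighter members against -0.14 over all genes of that brightness, and 0.04 over all 52 against 0.03 over all genes. At an unadjusted p under 0.05 there were 22 members, 42.3%, where 26.2% of all genes reached it. In bulk tissue, fewer cells of a type and less RNA per cell cannot be told apart. The member count was 7 without IL10KO replicate 1 or 3, where 5.43% and 4.97% of all genes were called. It was also 7 without WT replicate 1 or the library labelled WT replicate 3, where 4.48% and 4% were. With both acinar-rich WT arrays left out, most of the 12 member calls were lost, as were most calls over all genes. In that fit only the library labelled WT replicate 3 stood for WT, assumed to vary like the other groups.

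**Figure D1:**
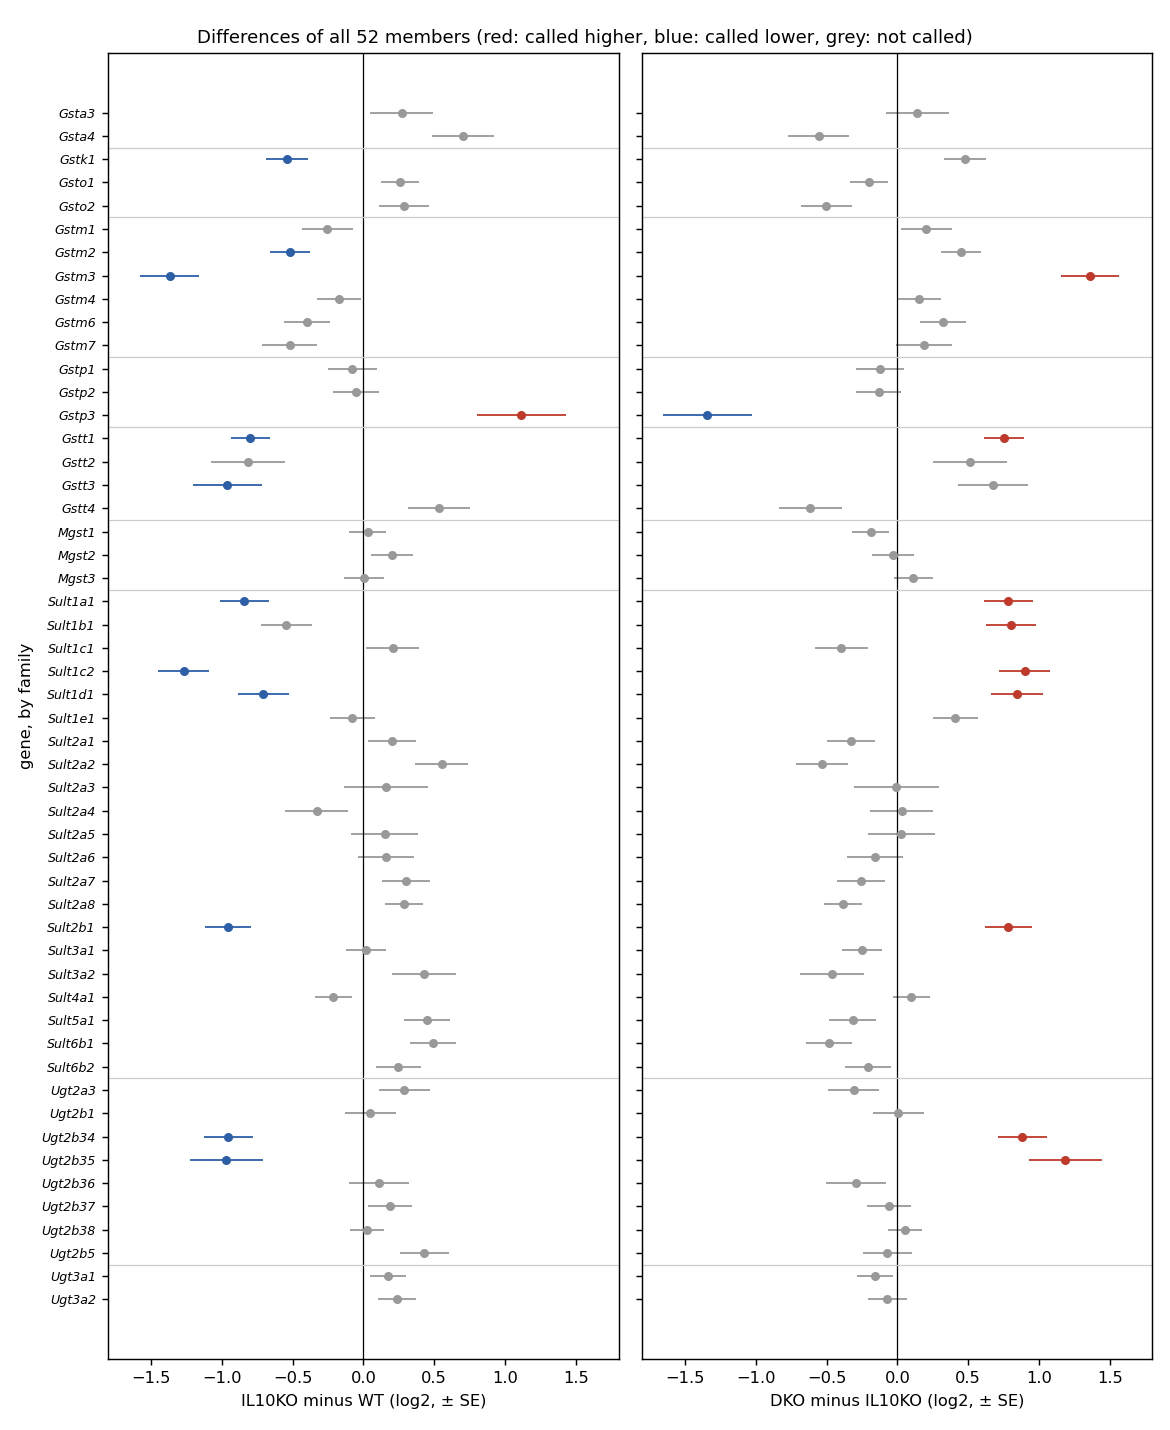
Log2 difference with its SE for each of the 52 genes, grouped by family, in IL10KO minus WT (left) and DKO minus IL10KO (right). Red genes were called higher, blue ones lower and grey ones were not called; the called genes of the left panel are 11 blue and 1 red, and those of the right panel 9 red and 1 blue, and the 2 panels share the IL10KO arrays.

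The mu-class glutathione S-transferases, cytosolic enzymes that detoxify epoxides and quinones, were all on the lower side in IL10KO, from -0.17 to -1.37, and 2 of the 6 passed. Gstm3 read 8.48, 8.14 and 8.54 in WT, 7.16, 7.33 and 6.57 in IL10KO, 8.38, 8.61 and 8.38 in SKO and 8.73, 8.28 and 8.13 in DKO. The 3 IL10KO arrays lie below the 9 others with no overlap. Gstm3 fell in IL10KO by 1.37 on the log2 scale (SE 0.21, limma adjusted p = 0.00197), a 2.58-fold change that passed without any single array (highest limma adjusted p = 0.0100). Gstm2 was 8.42, 8.26 and 8.67 in WT and 7.80, 7.98 and 8.01 in IL10KO, again without overlap, a smaller difference of -0.52 ± 0.14 (SE, limma adjusted p = 0.0381). Its call ended without any 1 of DKO replicates 2 and 3, SKO replicate 1, IL10KO replicates 1 and 3, WT replicate 1 and the library labelled WT replicate 3, reaching 0.153. Gstm7 (-0.52), Gstm6 (-0.40), Gstm1 (-0.26) and Gstm4 (-0.17) did not pass. These genes are neighbours in the order Gstm7, Gstm6, Gstm3, Gstm2, Gstm1, Gstm4 (GRCm38.p6) and are close paralogs, so a share of each signal may come from a relative.

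Theta-class enzymes, known for acting on small halogenated compounds, showed falls in Gstt1 and Gstt3. Gstt1 read 7.73, 7.50 and 7.39 in WT and 6.67, 6.66 and 6.90 in IL10KO. These ranges do not overlap, and the difference of -0.80 ± 0.14 (SE, limma adjusted p = 0.00440) passed without any single array. Gstt3 read 8.19, 7.76 and 8.20 in WT and 6.98, 7.68 and 6.61 in IL10KO, so IL10KO replicate 2 came close to WT. Its difference was -0.96 ± 0.25 (SE, limma adjusted p = 0.0297), and IL10KO replicates 1 and 3, WT replicate 1 and the library labelled WT replicate 3 were each needed for the call (up to 0.105). Gstt2 had a difference of -0.82 (limma adjusted p = 0.0703) and the dim Gstt4 one of 0.53 (0.145), so neither passed.

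Pi-class enzymes split. Gstp3 was the only member of the whole set that rose in IL10KO, by 1.11 ± 0.31 (SE, limma adjusted p = 0.0451). It read 8.46, 6.97 and 8.38 in WT, 8.86, 9.32 and 8.98 in IL10KO, 8.10, 7.63 and 8.13 in SKO and 7.91, 7.77 and 7.45 in DKO. IL10KO lies above every other array, and WT replicate 2 lies far below the other WT arrays. Without WT replicate 2 the difference was 0.63 and did not pass, and the call also ended without any single IL10KO or DKO array or SKO replicate 1 or 3 (highest limma adjusted p = 0.108). Gstp1, which conjugates many electrophiles, read 10.55, 10.73 and 10.90 in WT, against 10.49, 10.74 and 10.71 in IL10KO, differing by -0.08 ± 0.17 (SE), and Gstp2 differed by -0.05. Neither passed, and their ranges overlap.

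Of the kappa, alpha, omega and membrane-bound enzymes, only Gstk1 passed. Gstk1, a mitochondrial and peroxisomal enzyme, read 8.91, 8.70 and 9.16 in WT and 8.45, 8.27 and 8.44 in IL10KO, a fall of 0.54 on the log2 scale (limma adjusted p = 0.0388). The IL10KO values lie below all WT values, but the call ended without any 1 of 8 arrays, namely all 3 of IL10KO, SKO replicates 1 and 3, DKO replicate 2, WT replicate 1 and the library labelled WT replicate 3, reaching 0.155. Gsta4, which clears the lipid peroxidation product 4-hydroxynonenal, read 8.48, 8.29 and 8.79 in WT and 8.74, 9.74 and 9.19 in IL10KO. The ranges overlap and 0.70, the difference, missed the threshold (limma adjusted p = 0.0607). Gsto1, an omega-class thiol transferase and dehydroascorbate reductase, was 9.71 ± 0.03 (SD, n = 3) in WT against 9.97 ± 0.23 in IL10KO, differing by 0.26, and did not pass. The membrane-bound Mgst1, Mgst2 and Mgst3 differed by 0.03, 0.20 and 0.00 and none passed.

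Among UDP-glucuronosyltransferases, Ugt2b34 and Ugt2b35 fell in IL10KO. Ugt2b34 read 11.11, 10.93 and 10.81 in WT, 10.01, 10.33 and 9.66 in IL10KO, 10.95, 10.88 and 11.12 in SKO and 11.11, 10.71 and 10.81 in DKO. IL10KO lies below the 9 other arrays, and the difference from WT was -0.95 ± 0.17 (SE, limma adjusted p = 0.00560), which passed without any single array. Ugt2b35 read 6.30, 5.82 and 6.18 in WT, against 4.55, 5.69 and 5.16 in IL10KO, differing by -0.97 ± 0.26 (SE, limma adjusted p = 0.0342). The ranges do not overlap, yet IL10KO spread widely, and the call ended without any single WT array or IL10KO replicate 1 or 3, reaching 0.114. The other 6 Ugt2 genes are dim, differed by 0.02 to 0.43 and did not pass. Ugt3a1 (3.28 ± 0.16, SD, n = 3, in WT and 3.45 ± 0.13 in IL10KO) and Ugt3a2 (2.23 ± 0.18 and 2.47 ± 0.09) did not pass either.

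Sulfotransferases gave 4 falls and no rise among 21 genes. Sult1c2, of the phenol sulfotransferase family, had the largest of them and read 7.83, 8.13 and 8.13 in WT, 6.38, 7.17 and 6.74 in IL10KO, 8.23, 7.97 and 8.12 in SKO and 7.74, 7.69 and 7.54 in DKO. DKO lies between IL10KO and the range of WT and SKO, with no overlap on either side. Sult1c2 fell in IL10KO by 1.27 on the log2 scale (SE 0.18, limma adjusted p = 0.00128), a 2.41-fold change that passed without any single array. Sult2b1, which sulfates cholesterol and other sterols, was 8.12, 7.73 and 7.87 in WT, against 6.77, 7.11 and 6.99 in IL10KO, differing by -0.95 ± 0.16 (SE, limma adjusted p = 0.00379). Sult2b1 is also known from stratified squamous epithelium. It read 7.11 and 6.99 in IL10KO replicates 2 and 3, whose squamous genes averaged 7.10 and 7.26. In IL10KO replicate 1, where these averaged 5.09, it read 6.77. All these values lay below every array of the other genotypes. The part of squamous tissue in them was not tested. Sult1a1, the main phenol sulfotransferase, was 10.55, 10.27 and 9.82 in WT, against 9.38, 9.44 and 9.29 in IL10KO, differing by -0.84 ± 0.17 (SE, limma adjusted p = 0.0110). In Sult1a1 the lowest WT value is that of the library labelled WT replicate 3. Both genes passed without any single array.

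Of the neighbouring genes Sult1b1 and Sult1d1, only Sult1d1 was called in IL10KO against WT. Whether these genes differed from each other was not tested. Sult1d1, known for the sulfation of catecholamines in mice, read 9.47, 9.26 and 9.36 in WT, against 8.55, 8.44 and 8.98 in IL10KO, differing by -0.71 ± 0.18 (SE, limma adjusted p = 0.0299). Its call ended without any single WT array or IL10KO replicate 1 or 2, reaching 0.0977. Sult1b1, which acts on phenols and thyroid hormones, read 8.60, 8.33 and 8.60 in WT, against 7.73, 8.10 and 8.07 in IL10KO, differing by -0.54, and did not pass (limma adjusted p = 0.0744) although the ranges do not overlap. The next gene in that row, the dim oestrogen sulfotransferase Sult1e1, differed by -0.08. The 8 Sult2a genes, hydroxysteroid sulfotransferases best known from liver, differed by -0.33 to 0.55, and none passed.

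The promoters of 4 genes are printed to show the start regions of the largest fall (Gstm3), of the only rise (Gstp3) and of the adjacent pair Sult1d1 and Sult1b1. They are RefSeq sequences of GRCm38.p6, 250 bases before to 50 after the annotated start, 5′ to 3′ on the gene's own strand, which is the minus strand for all 4. Gstm3 is at chr3:107969125-107969424, Gstp3 at chr19:4059398-4059697, Sult1d1 at chr5:87568957-87569256 and Sult1b1, by the first of its 2 listed starts, at chr5:87536173-87536472. Capitals mark motif matches, which are an HNF1-type match and a reverse-strand xenobiotic response element core in Sult1d1, the forward core in Gstp3, the forward core and an HNF4-type match in Sult1b1, and none in Gstm3.
Gstm3: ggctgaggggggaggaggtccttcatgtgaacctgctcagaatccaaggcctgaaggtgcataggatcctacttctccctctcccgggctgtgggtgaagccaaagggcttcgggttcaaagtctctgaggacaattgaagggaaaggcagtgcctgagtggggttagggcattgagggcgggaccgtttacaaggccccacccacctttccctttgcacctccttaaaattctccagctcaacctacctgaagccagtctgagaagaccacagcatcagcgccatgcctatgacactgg
Gstp3: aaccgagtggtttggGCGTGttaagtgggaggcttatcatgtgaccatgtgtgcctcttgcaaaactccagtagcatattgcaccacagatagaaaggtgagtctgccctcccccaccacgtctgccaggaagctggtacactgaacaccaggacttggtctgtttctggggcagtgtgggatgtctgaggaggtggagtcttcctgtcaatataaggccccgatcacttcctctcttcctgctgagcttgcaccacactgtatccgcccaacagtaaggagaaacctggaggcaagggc
Sult1d1: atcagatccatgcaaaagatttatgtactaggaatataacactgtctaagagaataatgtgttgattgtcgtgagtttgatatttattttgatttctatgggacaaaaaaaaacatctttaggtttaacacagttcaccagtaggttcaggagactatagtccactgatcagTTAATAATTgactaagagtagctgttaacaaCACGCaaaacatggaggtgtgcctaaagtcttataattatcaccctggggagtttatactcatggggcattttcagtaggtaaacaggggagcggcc
Sult1b1: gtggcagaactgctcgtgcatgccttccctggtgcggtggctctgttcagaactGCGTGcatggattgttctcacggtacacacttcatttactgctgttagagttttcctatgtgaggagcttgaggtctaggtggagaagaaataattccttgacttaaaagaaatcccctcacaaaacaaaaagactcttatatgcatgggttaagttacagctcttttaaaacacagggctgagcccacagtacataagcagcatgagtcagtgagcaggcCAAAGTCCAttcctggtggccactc

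Motifs were searched on both strands in the 56 listed promoters of 45 members and in all 32851 promoters of the table, and no matches of different motifs overlapped in the members. The antioxidant response element core (TGACNNNGC) was in none of the 13 promoters of the 11 genes that fell and in 3 of the 56, those of Gsta3, Gstm7 and Mgst1, against 12.4% of all promoters. The xenobiotic response element core (GCGTG) was in 3 of the 13, belonging to Sult1d1 and Sult2b1, and in 9 of the 56, against 32.4%. The HNF4-type sequence CAAAGTCCA was found in Sult1b1 only, 25 bases after its start, against 0.475% of all promoters. The HNF1-type sequence TTAATNATT was in 9 of the 56, against 1.47%. Among the genes that fell, Sult1d1 held it 78 bases before its start and Ugt2b35 150 bases before, on the reverse strand. The other 7 genes are dim, namely Sult2a3, Sult2a4, Sult2a5 and Sult2a6, which share the match TTAATGATT and are close paralogs, and Ugt2b5, Ugt2b37 and Ugt2b38. The CDX-type sequences TTTATGG or TTTATTG were in 3 of the 56 (Gstm6, Sult3a2 and Ugt2a3), against 7.2%. A match describes these letters only.

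**Figure D2:**
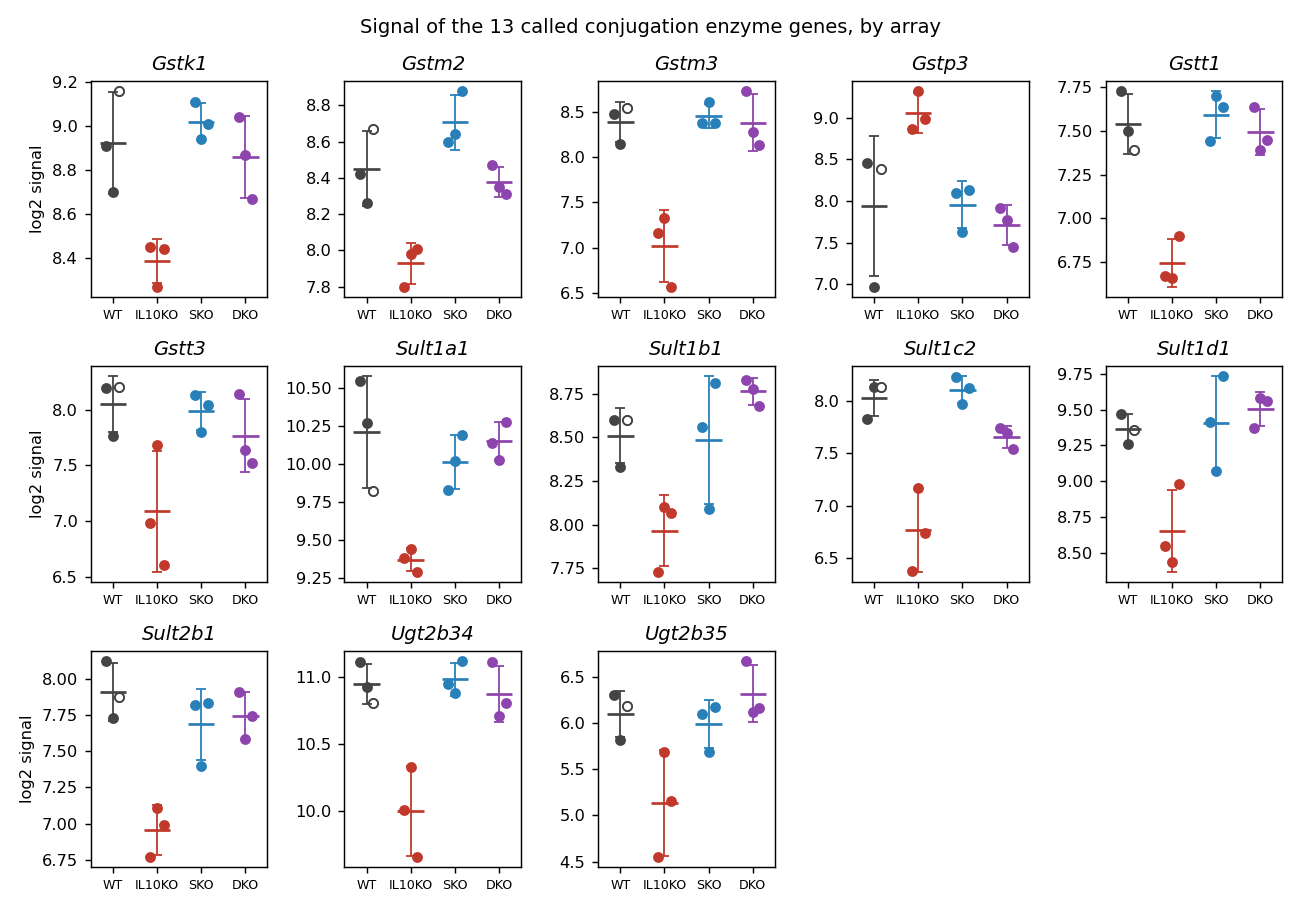
Log2 signal of the 13 genes called in IL10KO against WT or in DKO against IL10KO, by genotype. Points are arrays, bars the mean of 3 and whiskers the SD, the open point is the library labelled WT replicate 3 and each panel has its own axis; in 12 panels IL10KO is the lowest group and in the Gstp3 panel it is the highest.

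The comparison of DKO with IL10KO asks what STING deficiency adds in mice that already lack IL-10. Of the 52 genes, 9 were higher in DKO and 1 was lower. These 10 are 19.2% of the 52, where 5.79% of all genes were called (3.34% higher, 2.45% lower), and all lie among the 25 brighter members, of which they are 40% where 8.22% of genes of that brightness were called. The median of the brighter members was 0.45 against 0.14 for those genes. An unadjusted p under 0.05 was reached by 20 members, 38.5%, and by 24.4% of all genes. Over all 52 the median was -0.02 and over all genes -0.04. The comparison shares the IL10KO arrays with the one above, so the differences of a gene in the pair are not independent. The count was 3 without DKO replicate 1, the array with the highest adipocyte signal (6.96), where 1.92% of all genes were called. It was 6 without DKO replicate 2 (adipocyte signal 5.56), where 2.27% of all genes were called. The part of the adipocyte signal in these calls was not tested.

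Gstm3 was higher in DKO than in IL10KO by 1.36 ± 0.21 (SE, limma adjusted p = 0.00246) and Gstt1 by 0.75 ± 0.14 (SE, limma adjusted p = 0.00799). These calls held without any single array. Ugt2b35 was higher by 1.18 ± 0.26 (SE, limma adjusted p = 0.0173), with DKO values of 6.67, 6.12 and 6.16 above all of IL10KO, and Ugt2b34 by 0.88 ± 0.17 (SE, limma adjusted p = 0.0108). Among sulfotransferases, Sult1c2 was higher by 0.90 ± 0.18, Sult1d1 by 0.84 ± 0.18, Sult1b1 by 0.80 ± 0.18, Sult2b1 by 0.78 ± 0.16 and Sult1a1 by 0.78 ± 0.17 (SE in each case, limma adjusted p between 0.0120 and 0.0194). Sult1b1 read 8.83, 8.78 and 8.68 in DKO, above the 3 IL10KO arrays. Gstp3 fell by 1.34 on the log2 scale (SE 0.31, limma adjusted p = 0.0249), and its DKO values lie below all of IL10KO. Gstt3 (0.67), Gstk1 (0.48) and Gstm2 (0.45) did not pass. DKO replicate 1 alone ended the calls of Ugt2b34, Ugt2b35 and Sult2b1 (limma adjusted p up to 0.0605, 0.0887 and 0.0748), and DKO replicate 2 that of Sult1d1 (0.0713). The call of Sult1c2 ended without DKO replicate 1 or 2 (0.0586), that of Sult1b1 without IL10KO replicate 1 or DKO replicate 1 or 2 (0.0831), that of Sult1a1 without IL10KO replicate 3 or DKO replicate 1 or 3 (0.0713) and that of Gstp3 without IL10KO replicate 2 or 3 or any DKO array (0.0752).

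DKO against SKO sets mice lacking both genes beside mice lacking STING alone, and it shares no array with IL10KO against WT. No member was called by limma, where 0.0451% of all genes were, and 5 had an unadjusted p under 0.05, which 4.77% of all genes had. Sult1e1 had the smallest p, with 3.52, 3.63 and 3.65 in SKO and 4.09, 3.96 and 4.37 in DKO, a difference of 0.54 ± 0.16 (SE, limma adjusted p = 0.648). Sult1c2 differed by -0.45 (95% interval -0.84 to -0.06) and Gstm7 by -0.46, and neither passed. For Gstm3 the difference was -0.08 with an interval from -0.52 to 0.37, while its interval in IL10KO against WT ran from -1.81 to -0.92. For Ugt2b34 it was -0.10 (-0.48 to 0.27) against -0.95 (-1.33 to -0.58). For Sult2b1 it was 0.06 (-0.29 to 0.41) against -0.95 (-1.30 to -0.60). For Gstm2 it was -0.33 (-0.63 to -0.03) against -0.52 (-0.82 to -0.22), so its intervals overlap. The intervals of Gstk1 (-0.48 to 0.16 against -0.86 to -0.22) and Gstt3 (-0.75 to 0.30 against -1.49 to -0.43) overlap too. For Gstp3 the interval was wide, -0.92 to 0.43. Across the 52 genes the differences of the 2 comparisons had a Pearson r of 0.08, a description across genes, which are not independent replicates.

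**Figure D3:**
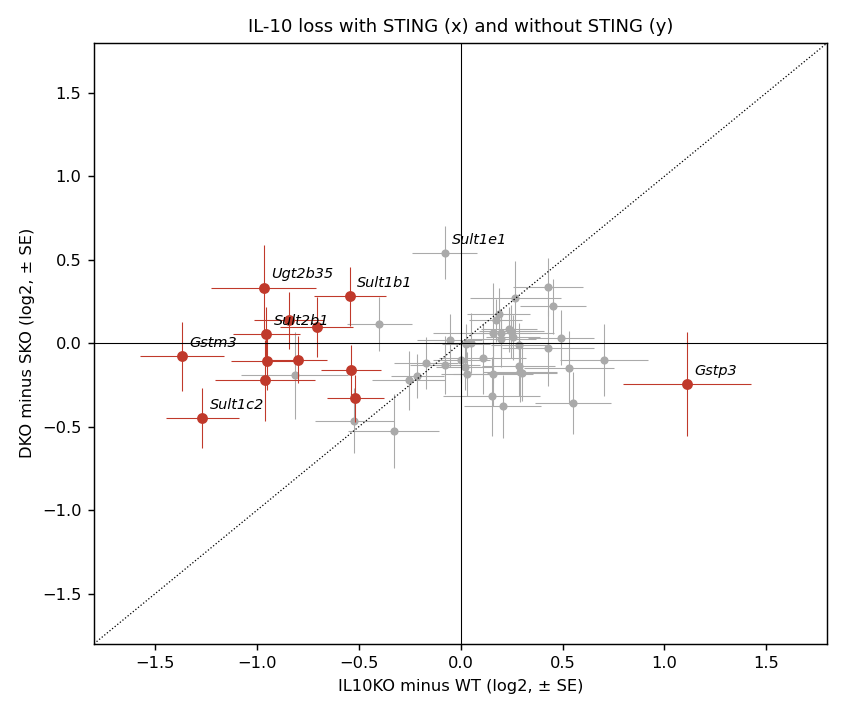
Log2 difference of IL10KO minus WT (x axis) and of DKO minus SKO (y axis), with SE bars, for the 52 genes. Red points are the 13 genes called in IL10KO against WT or DKO against IL10KO and the dotted line marks equal differences; Gstm3 lies at -1.37 on the x axis and -0.08 on the y axis.

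Whether the IL-10 effect depended on the STING genotype was tested directly as (DKO minus SKO) minus (IL10KO minus WT). No member passed in limma, where 0.645% of all genes did. At an unadjusted p under 0.05 there were 16 members, 30.8% of the 52, where 15.7% of all genes reached it. Gstm3 came closest, with a difference of effects of 1.29 ± 0.29 (SE, limma adjusted p = 0.0709), followed by Sult2b1 with 1.01 ± 0.23 (0.0715) and Sult1a1 with 0.98 ± 0.24 (0.0974). Without IL10KO replicate 2, where 1.7% of all genes passed, 5 members did, namely Gstm3, Sult1c2, Sult2b1, Ugt2b34 and Ugt2b35. Without the library labelled WT replicate 3, where 0.757% of all genes passed, Sult1a1 was the only member, with 1.17 (limma adjusted p = 0.0272).

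SKO against WT and DKO against WT gave no called member in limma, where 0% and 0.0451% of all genes were called, and no member had an unadjusted p under 0.05 in either, where 2.05% and 2.92% of all genes did. In SKO against WT the smallest p belonged to the dim Sult2a5 (0.50) and Sult2a2 (0.38) and to Gstm2 (0.26). Both comparisons include the library labelled WT replicate 3. Without that library 0.248% and 0.311% of all genes were called, and still no member. In DKO against WT the smallest p belonged to Sult1e1 (0.33), Ugt2b5 (0.36) and Sult1c2, whose difference of -0.37 had a 95% interval from -0.76 to 0.02. For Gstm3 that interval was -0.45 to 0.44, for Ugt2b34 -0.44 to 0.30 and for Gstp3 -0.90 to 0.45.

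The genes that make the cofactors were described from lists, whose counts stand beside 3.12% of all genes called higher and 5.01% called lower in IL10KO against WT, and 3.34% and 2.45% in DKO against IL10KO. In IL10KO against WT, 4 of 9 measured PAPS supply and sulfate handling genes fell and none rose (median -0.54, all genes 0.03). In DKO against IL10KO, 4 were higher and none was lower (median 0.38, all genes -0.04). Genes above the median signal had medians of -0.14 and 0.14 in these comparisons, and 11.9% and 8.22% of them were called. Papss1, a PAPS synthase, read 9.92, 9.72 and 9.72 in WT, 8.60, 9.22 and 8.93 in IL10KO and 9.85, 9.43 and 9.56 in DKO. It fell in IL10KO by 0.87 on the log2 scale (limma adjusted p = 0.0110) and passed without any single array. The synthase Papss2 differed by -0.75 (limma adjusted p = 0.0196), the sulfate transporter Slc26a2 by -0.88 (0.0148) and Slc26a3, known mainly as a chloride and bicarbonate exchanger, by -0.96 (0.0147). Papss2 was lost without any single WT array or IL10KO replicate 3, Slc26a2 without WT replicate 2 and Slc26a3 without WT replicate 1. In DKO against IL10KO the 4 differences were 0.70, 0.73, 0.93 and 1.01 in the same order. Each of these 4 calls ended without DKO replicate 1 or 2, that of Papss2 also without IL10KO replicate 3, and that of Papss1 also without DKO replicate 3, SKO replicate 1, WT replicate 2 or IL10KO replicate 1 or 3.

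For glucuronidation, 1 of 6 genes fell and 1 rose in IL10KO (median -0.02, all genes 0.03), where 8.14% of all genes were called. Ugdh, which makes UDP-glucuronic acid, read 10.24, 10.34 and 10.05 in WT against 9.66, 9.86 and 9.49 in IL10KO and differed by -0.54 (limma adjusted p = 0.0294). Gusb, the lysosomal enzyme that removes glucuronic acid, read 8.02, 7.96 and 7.81 in WT, 8.37, 8.47 and 8.53 in IL10KO and 7.92, 7.72 and 7.98 in DKO, so it was highest in IL10KO without overlap. Gusb rose in IL10KO by 0.53 (limma adjusted p = 0.0244) and fell in DKO against IL10KO by 0.58 on the log2 scale (limma adjusted p = 0.0189). The call of Ugdh ended without IL10KO replicate 1 or 3 or either of the first 2 WT replicates. The calls of Gusb ended without any single WT array or IL10KO replicate 3 in the first comparison, and without IL10KO replicate 3 or DKO replicate 1 or 2 in the second.

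In glutathione synthesis and recycling, 3 of 11 genes fell in IL10KO (median -0.01), where 5.01% of all genes fell. Cbs and Cth, which make cysteine from homocysteine, fell by 1.29 and by 1.03 on the log2 scale (limma adjusted p = 0.00118 and 0.00183), and Ggt6, of the gamma-glutamyltransferase family, differed by -0.70 (0.0192). Cth read 7.40, 7.41 and 7.04 in IL10KO and 8.17 to 8.60 in the 9 other arrays. In DKO against IL10KO, Cth (1.04) and Ggt6 (0.66) were higher and the cystine importer Slc7a11 was lower (-1.67). Cbs was not called in that comparison (0.40, limma adjusted p = 0.190). It read 7.30, 7.82 and 7.68 in DKO, below all WT and SKO arrays (8.31 to 8.71), and differed between DKO and SKO by -0.85, which did not pass (limma adjusted p = 0.231). Gclc and Gclm, the subunits of the rate-limiting glutathione enzyme, differed by 0.32 and -0.01 in IL10KO against WT and did not pass. The calls of Ggt6 and Slc7a11 depended on single arrays, with limma adjusted p up to 0.0819 and 0.139 for Ggt6 in the 2 comparisons and up to 0.125 for Slc7a11. For Ggt6 these were IL10KO replicates 1 and 3, WT replicate 1 and the library labelled WT replicate 3 in the first, and IL10KO replicates 1 and 3 and DKO replicates 1 and 2 in the second. For Slc7a11 they were IL10KO replicate 2 and each DKO array.

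**Figure D4:**
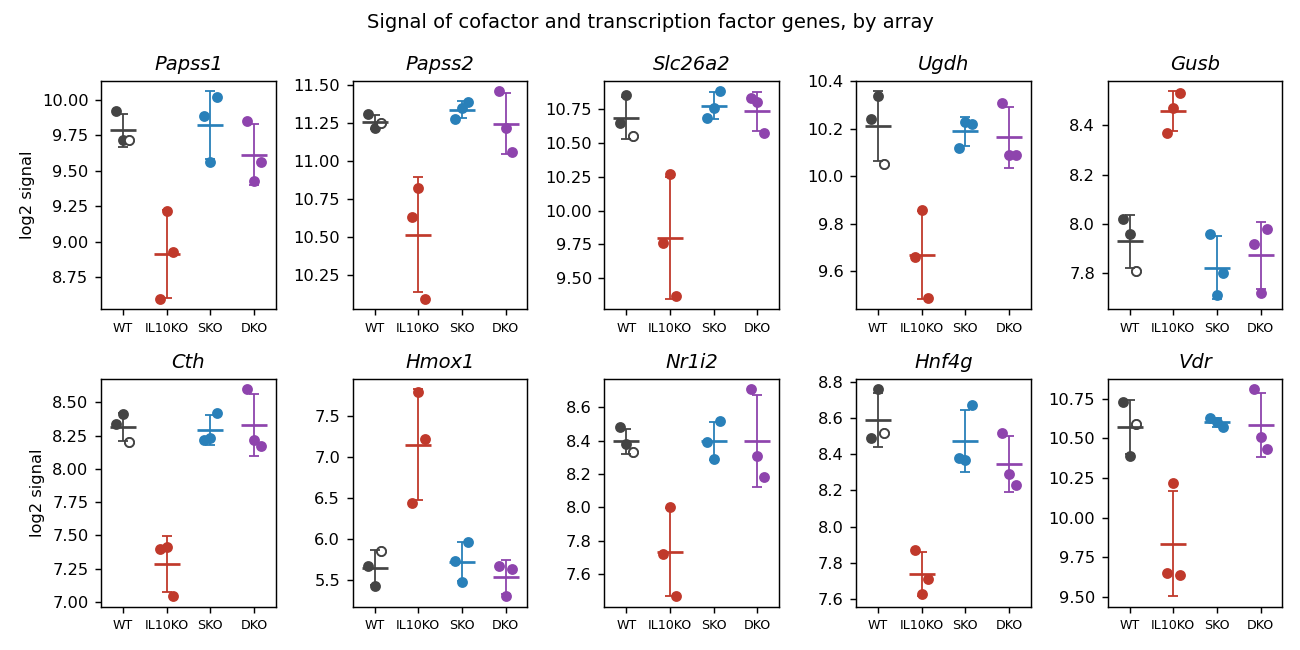
Log2 signal of 10 genes of cofactor supply, glucuronide hydrolysis, antioxidant response and transcription, by genotype. Points are arrays, bars the mean of 3 and whiskers the SD, the open point is the library labelled WT replicate 3 and each panel has its own axis; Gusb and Hmox1 are highest in IL10KO and the other 8 are lowest there.

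Of 17 NRF2 target genes, the antioxidant programme that also drives several Gst genes, 2 rose in IL10KO and none fell (median 0.24), a share near the 8.14% of all genes and 11.9% of brighter genes called. Hmox1, haem oxygenase, read 5.67, 5.43 and 5.85 in WT, against 6.44, 7.79 and 7.22 in IL10KO, differing by 1.50 ± 0.26 (SE, limma adjusted p = 0.00450), and Cbr3, a carbonyl reductase, rose by 1.54 (0.00381). Nqo1, the most used marker of the programme, differed by 0.26 and did not pass. In DKO against IL10KO, Hmox1 fell by 1.61 and Slc7a11, which is on this list too, by 1.67 on the log2 scale. Cbr3 was higher in DKO than in SKO by 1.74 (limma adjusted p = 0.0378), the only call of the 6 pathway lists in that comparison, and it ended without any DKO array, SKO replicate 1 or 2, or the second replicate of WT or of IL10KO (up to 0.219).

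Of 19 xenobiotic sensors and epithelial transcription factors, 5 fell in IL10KO and none rose (median -0.32). The median was 0.03 over all genes and -0.14 over genes above the median signal, of which 11.9% were called. Hnf4g read 8.49, 8.76 and 8.52 in WT, against 7.87, 7.63 and 7.71 in IL10KO, differing by -0.85 ± 0.14 (SE, limma adjusted p = 0.00344) that passed without any single array. The vitamin D receptor Vdr differed by -0.73 (limma adjusted p = 0.0199), the pregnane X receptor Nr1i2 by -0.67 (0.0269) and Hnf4a by -0.60 (0.0184). In DKO against IL10KO, Vdr (0.75), Nr1i2 (0.67), Foxa2 (0.66) and Hnf4g (0.61) were higher. Nfe2l2, which encodes NRF2, differed by -0.38 and Ahr, the aryl hydrocarbon receptor, by -0.53 in IL10KO against WT, and neither passed. The calls of Vdr, Nr1i2 and Hnf4a ended without WT replicate 1 or IL10KO replicate 3, those of Vdr and Nr1i2 also without IL10KO replicate 1 or the library labelled WT replicate 3, and those of Nr1i2 and Hnf4a also without WT replicate 2. In DKO against IL10KO all 4 calls ended without IL10KO replicate 3 or DKO replicate 1 or 2, those of Vdr, Nr1i2 and Foxa2 also without IL10KO replicate 1, and that of Foxa2 also without DKO replicate 3 (limma adjusted p up to 0.142). Of 12 other conjugating enzymes, the thiopurine methyltransferase Tpmt fell in IL10KO by 0.77 on the log2 scale and was higher in DKO than in IL10KO by 0.83, both without dependence on a single array, and no other passed.

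Markers of cell types moved beside these genes. Their counts stand beside 5.01% of all genes called lower and 3.12% called higher in IL10KO against WT. In DKO against IL10KO these shares were 2.45% and 3.34%. The 12 general epithelial genes averaged 10.89 to 10.97 in WT, 10.79 to 10.90 in IL10KO and 10.96 to 11.06 in DKO. None was called in either comparison (medians -0.14 and 0.15, genes above the median signal -0.14 and 0.14). Colonocyte genes (17 measured) averaged 9.32 to 9.42 in WT, 9.07 to 9.43 in IL10KO and 9.53 to 9.73 in DKO, with 5 fallen in IL10KO and 7 higher in DKO than in IL10KO. Goblet cell genes (12) averaged 10.52 to 11.18, 10.19 to 10.48 and 10.75 to 10.95, with 4 fallen and 3 higher. Smooth muscle genes (13) averaged 10.04 to 10.18, 9.12 to 9.37 and 10.01 to 10.28, with 11 fallen and 11 higher. Neutrophil genes (14) averaged 4.39 to 4.44, 5.79 to 7.22 and 4.41 to 4.60, with 11 risen and 11 lower, and 14 of 17 squamous and sebaceous genes rose and 10 were lower in DKO. The part of these shifts in the values of the conjugation enzymes was not tested.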

How the data were processed

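The authors deposited 1 table of log2 signals from colon RNA, 41345 probe sets on 12 arrays. Per the labels' protocols, each array received material from 300 ng of total RNA, prepared by a WT PLUS kit, and per the submitters' processing notes the values were made with Affymetrix Expression Console 1.3.1.187. Background correction, summary method, normalization and genome build: not given in the sources used here. The deposited values were taken as log2 from their range (1.08 to 13.29) and similar medians.

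The platform annotation named the probe sets, with 23521 having 1 symbol, 1814 several and 16010 none. Each gene took its brightest row, and no filter was applied. All 12 arrays were fitted with limma 3.58.1 (R 4.3.3), a mean per genotype, 8 residual and 5.56 prior degrees of freedom. Tests were 2-sided. The steps were tested on simulated data. Genotypes came from the labels and replicates were numbered in accession order. The members and gene lists were chosen with earlier results of these data known. Genes were named where called, or, in a comparison without calls, as the 3 smallest p, with the brightest and the most changed member of each family, and up to 4 called genes per list and comparison. As alternatives the arrays were quantile normalized or centred on their medians, the dimmest 33.3% of genes dropped, probe sets averaged, the fit limited to the compared genotypes, the prior trended and made robust, arrays weighted, a 2-fold threshold set or arrays omitted. The 2 paired omissions of arrays (acinar-rich WT, squamous-rich IL10KO) were chosen after seeing the data. RefSeq promoters (GRCm38.p6) covered 45 of the 52 members. The HNF1-type motif was shortened by its leading G after a first search, which widened its matches. Precision is limited by the number of arrays.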

Additional observations from a re-analysis of the deposited data

How the results depend on the processing

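No paired analysis was possible because the labels give the genotypes no shared replicate numbers. No member call changed sign under any alternative. Of 22 member calls in 2 comparisons, 8 passed under every single omission and 4 under every alternative other than the 2-fold threshold (Gstm3 in both comparisons, Sult1c2 in IL10KO against WT and Gstt1 in DKO against IL10KO). At that threshold Gstt1, at 1.68-fold, is no longer called and the other 3 calls are. In IL10KO against WT the 12 called members became 5 with only the genotypes compared, where 3.17% of all genes were called. They became 7, beside 4.57% of all genes, with SKO replicate 2, IL10KO replicate 1 and the library labelled WT replicate 3 left out together. At a 2-fold threshold 3 stayed. The share of all genes at that threshold was not computed for any comparison, so its member counts have no background beside them. Without both acinar-rich WT arrays most of the 12 member calls were lost, as were most calls over all genes. Over single omissions the count ran from 7 to 15, and the share of all genes called from 3.53% to 13.8%. Quantile normalization gave 3 higher and 8 lower, where 8.74% of all genes were called. In DKO against IL10KO the 10 became 3 at a 2-fold threshold. Over single omissions that count ran from 3 to 11, where 1.92% to 10.6% of all genes were called. For the difference of effects, 0 became 1 under quantile normalization, the trended and robust prior, array weights or the omission of 3 arrays together. The share of all genes called there was 0.771%, 0.839%, 1.51% and 1.1%, in that order. Over single omissions the count ran from 0 to 5, and that share from 0.225% to 1.7%. Without both squamous-rich IL10KO arrays more members and more of all genes were called. The cause of these shifts was not tested. Counts in the other comparisons were 0 under every alternative. An omission that leaves 1 array in a genotype assumes that it varies like the others. With 3 arrays per genotype and no detection calls, dim members could hide changes.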
